A study of Mus musculus with 12 samples.

Results

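The genes described here encode the parts of the inflammasome and of the lytic cell death pathways that follow it. They were chosen by name, with earlier results of these data known, and matched to the mouse Ensembl identifiers of both count tables. All 10 were found among 35697 identifiers in the table of 2018 and among 55637 in that of 2022. They are the sensors Nlrp3 (ENSMUSG00000032691, chromosome 11), Nlrp1a (ENSMUSG00000069830, chromosome 11), Nlrc4 (ENSMUSG00000039193, chromosome 17) and Aim2 (ENSMUSG00000037860, chromosome 1), the adaptor Pycard (ENSMUSG00000030793, chromosome 7), the inflammatory caspases Casp1 (ENSMUSG00000025888, chromosome 9) and Casp4 (ENSMUSG00000033538, chromosome 9), the pore former Gsdmd (ENSMUSG00000022575, chromosome 15), and Casp8 (ENSMUSG00000026029, chromosome 1) and Mlkl (ENSMUSG00000012519, chromosome 8) of the neighbouring apoptotic and necroptotic pathways. RNA came from the brains of adult male wild-type C57BL/6J mice of 20 to 25 g, in 4 groups of 3 mice. In the batch of 2018, sham mice, which had the surgery without the blow, were compared with mice sampled 7 days after controlled cortical impact (CCI), a traumatic brain injury (TBI) delivered to the exposed cortex with a 3 mm tip at 1.5 m/s, to a depth of 1.5 mm and with a dwell time of 100 ms. In the batch of 2022, mice injured in the same way were compared with injured mice that also received zileuton, an inhibitor of 5-lipoxygenase, by daily intraperitoneal injection of 10 mg per kg, with corn oil as the solvent. The labels call the controls of 2022 only injured, and the study's text describes them as vehicle-treated. The sources of the 3 zileuton mice were labelled 7, 8 and 9 days after injury, whereas their library names all gave 7 days. The tissue was described as pericontusional, so every library mixes resident brain cells with any cells that entered the lesion border. As the columns of 2022 could not be tied to numbered labels, those libraries are called A, B and C.

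An inflammasome is a cytosolic complex in which a sensor that has met a danger signal recruits the adaptor ASC, encoded by Pycard, and with it caspase-1. Active caspase-1 matures the cytokines interleukin-1β and interleukin-18 and cuts gasdermin D, whose freed part forms pores in the plasma membrane and brings about the lytic death called pyroptosis. Caspase-11, which is the product of mouse Casp4, cuts gasdermin D without a sensor complex of this kind, after binding bacterial lipopolysaccharide. Caspase-8 starts apoptosis and holds back necroptosis, the lytic death in which MLKL breaches the membrane, and in the brain most of these genes are best known from microglia and infiltrating myeloid cells.

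Casp1 and Casp4 lie next to each other on chromosome 9, and Pycard encodes the adaptor that links the sensors to caspase-1, so the RefSeq sequences just before the starts of these 3 genes are shown as the regulatory context of the changes given below. Each window holds the 250 bases before the annotated start, on GRCm38.p6, 5′ to 3′ on the gene's strand, at chr9:5298267-5298516 on the plus strand for Casp1, chr9:5308599-5308848 on the plus strand for Casp4 and chr7:127993868-127994117 on the minus strand for Pycard. Capitals mark matches to the motifs searched on both strands, which were a PU.1 type (GAGGAAGT), NF-kappaB, an AP-1 type (TGANTCA) and an interferon-response type (GAAA, any 2 bases and GAAA).
Casp1: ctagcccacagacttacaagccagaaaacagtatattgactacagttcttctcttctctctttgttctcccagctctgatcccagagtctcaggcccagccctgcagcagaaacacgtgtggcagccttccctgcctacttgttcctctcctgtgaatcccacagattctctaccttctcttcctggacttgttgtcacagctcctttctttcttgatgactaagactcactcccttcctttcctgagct
Casp4: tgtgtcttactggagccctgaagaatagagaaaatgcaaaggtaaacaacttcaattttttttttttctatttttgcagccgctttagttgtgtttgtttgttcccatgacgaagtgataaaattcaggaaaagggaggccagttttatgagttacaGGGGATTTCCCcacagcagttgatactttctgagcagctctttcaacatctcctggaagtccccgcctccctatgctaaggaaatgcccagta
Pycard: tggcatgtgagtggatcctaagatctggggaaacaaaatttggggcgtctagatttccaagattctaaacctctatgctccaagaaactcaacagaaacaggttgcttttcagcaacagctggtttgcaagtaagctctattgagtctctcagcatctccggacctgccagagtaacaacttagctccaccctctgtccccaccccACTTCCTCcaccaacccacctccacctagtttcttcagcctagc
The Casp4 window held overlapping NF-kappaB matches that began 93 and 92 bases before the start, and the Pycard window held a PU.1 type match on the reverse strand, 44 to 37 bases before the start. The Casp1 window held none of the 4 motifs. The table held 11 windows for 9 of the 10 genes, all but Gsdmd, with 2 each for Casp4, where they overlap, and Nlrp3. A PU.1 type match lay in 3 of the 11 windows (Aim2, Nlrp1a and Pycard) against 2.44% of all 32851 windows. NF-kappaB matched in 3 of the 11 (both of Casp4 and 1 of Nlrp3) against 3.9% of all windows. The AP-1 type, found in 6.75% of all windows, and the interferon-response type, found in 2.98%, matched in 0 of the 11. A match describes letters in the window and is not evidence of binding.

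Total counts per library were 42929862 to 48684674 in 2018 and 27845562 to 35453257 in 2022. Even numbers made up 62.3% to 64.4% of counts between 1 and 20 in 2018, and single counts were therefore not treated as single molecules. Values are given as CPM, counts per 1000000 after scaling with TMM factors, and as FPKM or TPM where different genes are compared, since these also divide by gene length. The injury labels were matched by Gfap, an astrocyte filament gene, at 188 CPM in sham and 2484 CPM in TBI mice, and by Cd68, a lysosomal gene of macrophages and microglia, at 7.90 and 97.3 CPM. Labels name separate mice. The p-values of edgeR set each difference against the spread between the 3 libraries per group, an estimate that also draws on the other genes.

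At 7 days after TBI, 8 of the 10 genes were higher than in sham mice with an adjusted p under 0.05 from edgeR's quasi-likelihood test, namely Nlrp3, Aim2, Pycard, Casp1, Casp4, Gsdmd, Casp8 and Mlkl, and none was lower. Among all 19536 genes tested, 16.8% were higher by the same rule. All 8 rose at least 2-fold, and 8.73% of all genes combined such a rise with an adjusted p under 0.05. The largest rises were those of Casp4 (19.6-fold) and Mlkl (13.2-fold). In the sham libraries Casp4 had only 4, 4 and 14 counts and Mlkl 2, 4 and 8. Both therefore entered the test mainly through their TBI counts, so a rise in them was close to given. The count of 8 includes both. In 9 of the 10 genes, all but Nlrc4, every TBI library lay above every sham library, which held for 24.6% of all genes. The median log2 fold change of the 10 genes was 2.22, and that of all genes tested was 0.0166.

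**Figure D1:**
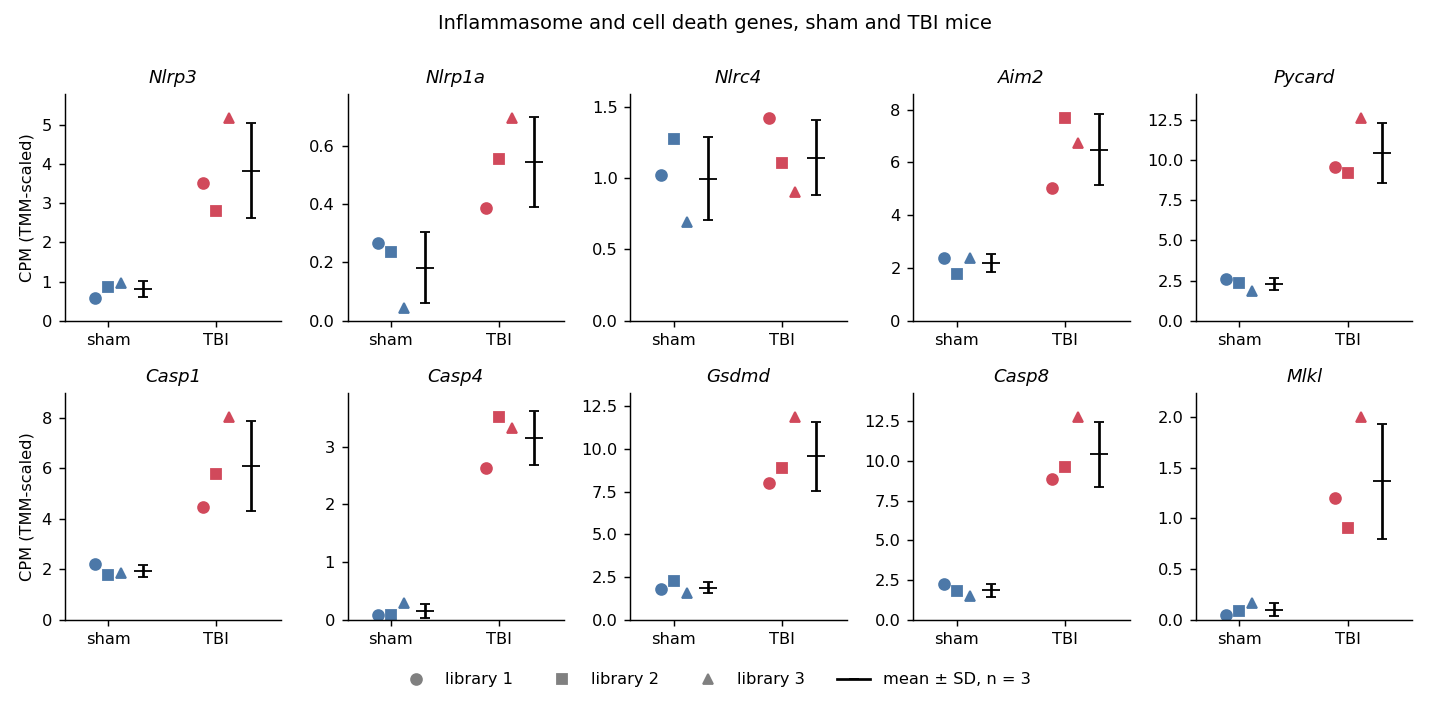
CPM after TMM scaling (vertical axis, starting at 0) of each of the 10 genes in sham and TBI libraries. Symbols are the 3 libraries of a group, and the bar beside them is the mean ± SD. The groups overlap only in Nlrc4.

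Of the sensors, Nlrp3 and Aim2 rose. Nlrp3, which responds to potassium efflux and membrane damage, stood at 0.577, 0.865 and 0.968 CPM in sham replicates 1 to 3 and at 3.52, 2.81 and 5.18 CPM in the TBI replicates. The lowest TBI library was well above the highest sham library, and the log2 fold change was 2.25 (standard error, SE, 0.316, adjusted p = 0.00107). Aim2, which senses cytosolic double-stranded DNA, had 2.38, 1.77 and 2.36 CPM in sham mice and 5.02, 7.68 and 6.73 CPM after TBI, again without overlap, with a log2 fold change of 1.58 (SE 0.223, adjusted p = 0.0011). Aim2 overlaps Cadm3, a neuronal adhesion gene on the opposite strand, and it is not stated whether counting used the strand. Cadm3, chosen after its values were seen because of this overlap, was lower after TBI. It had 432 CPM in sham and 323 CPM in TBI mice (log2 fold change -0.42, adjusted p = 0.00291 from edgeR). The 2 genes moved in opposite directions, and any share of Cadm3 reads in the Aim2 counts was not tested.

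Nlrp1a and Nlrc4 did not pass the threshold. Nlrp1a, a sensor activated by its own degradation, was covered by only 12, 11 and 2 counts in the sham libraries and by 19, 27 and 30 in the TBI libraries. The groups did not overlap, but the log2 fold change of 1.57 had a 95% interval from 0.20 to 2.95 (unadjusted p = 0.0294 and adjusted p = 0.0854 from edgeR), so at this depth its level is known only loosely. Nlrc4, which assembles on NAIP proteins that bind bacterial flagellin and secretion needle proteins, had 1.02, 1.275 and 0.694 CPM in sham mice and 1.42, 1.11 and 0.905 CPM after TBI. These groups overlapped, and the log2 fold change of 0.20 (95% interval -0.56 to 0.96, adjusted p = 0.698) covered both a fall and a rise. Nlrc4 was thus the gene with the smallest difference of the 10, and without sham replicate 3, its lowest library, the value was -0.02.

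The adaptor and both inflammatory caspases rose, by 3.14-fold for Casp1 up to 19.6-fold for Casp4. Pycard had 2.62, 2.33 and 1.87 CPM in sham mice and 9.55, 9.20 and 12.6 CPM after TBI, which gave 2.20 on the log2 scale (SE 0.2, adjusted p = 9.35e-05). Casp1 had 2.20, 1.77 and 1.85 CPM in sham mice and 4.47, 5.79 and 8.03 CPM after TBI, or 1.65 on the log2 scale (SE 0.248, adjusted p = 0.00152). In both genes the groups were clearly apart, and TBI replicate 3 was the highest library. Casp4 was near the floor in sham mice, with 4, 4 and 14 counts, and had 129, 171 and 143 counts after TBI. Its log2 fold change of 4.30 (SE 0.448, adjusted p = 0.000202) was the largest of the 10, and because of the low sham counts it carried a wide 95% interval from 3.28 to 5.31. Without sham replicate 3, which held 14 of the 22 sham counts, the value was 5.11 (adjusted p = 0.000299 from edgeR).

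The neighbours Casp1 and Casp4 therefore stood in a different ratio in the injured brain. Per length, the FPKM of Casp4 divided by that of Casp1 was 0.0341, 0.0412 and 0.135 in sham mice and 0.496, 0.513 and 0.349 after TBI. Every TBI library was above every sham library, and the mean ratio was 6.47-fold higher, or 12.01-fold without sham replicate 3 (two-sided exact permutation test, p = 0.1, the smallest that 3 mice against 3 allow). Pycard also gained on Casp1, with a ratio of FPKM of 0.968 ± 0.127 in sham mice and 1.46 ± 0.266 after TBI (SD, n = 3 each), without overlap (two-sided exact permutation p = 0.1).

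Gsdmd, Casp8 and Mlkl rose as well. Gsdmd, whose product forms the pyroptotic pore, had 1.82, 2.25 and 1.58 CPM in sham mice and 8.01, 8.87 and 11.9 CPM after TBI, with a log2 fold change of 2.35 (SE 0.218, adjusted p = 0.000106). Casp8 had 2.24, 1.84 and 1.47 CPM in sham mice and 8.90, 9.61 and 12.8 CPM after TBI, with a log2 fold change of 2.49 (SE 0.221, adjusted p = 8.13e-05). These rises were 5.08-fold and 5.63-fold, with every TBI library well above the sham libraries. Mlkl, the membrane effector of necroptosis, was almost unread in sham mice, with 2, 4 and 8 counts, and had 59, 44 and 86 counts after TBI. Its log2 fold change was 3.73 (SE 0.544, adjusted p = 0.00131), the widest standard error among the 8 genes called.

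Ordered by FPKM, the 10 genes fell into tiers in sham mice. Gsdmd (0.777 ± 0.141 FPKM, SD, n = 3, as for the following means), Casp8 (0.628 ± 0.127), Aim2 (0.608 ± 0.0948), Casp1 (0.607 ± 0.0674) and Pycard (0.588 ± 0.0947) led, and each overlapped its neighbour in this order. Nlrc4 (0.203 ± 0.0595 FPKM) and Nlrp3 (0.195 ± 0.0499 FPKM) followed and could not be told apart. Nlrp1a, Mlkl and Casp4, all between 0.0415 and 0.0428 FPKM on average, were the lowest and overlapped. After TBI the same 5 genes led, now with Gsdmd at 4.09 ± 0.824, Casp8 at 3.66 ± 0.685, Pycard at 2.79 ± 0.463, Casp1 at 1.98 ± 0.567 and Aim2 at 1.89 ± 0.416 FPKM, each again overlapping the next. Nlrp3 (0.959 ± 0.289), Casp4 (0.865 ± 0.137) and Mlkl (0.601 ± 0.240) formed a middle tier of overlapping FPKM values. Nlrc4 (0.243 ± 0.0551 FPKM) and Nlrp1a (0.133 ± 0.0373 FPKM) were now the lowest, each separate from its neighbours. Casp4 and Mlkl thus left the bottom of the order, and Nlrc4 moved down to just above it.

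Myeloid markers rose with these genes. All 12 pan-myeloid markers, among them Csf1r, C1qa and C1qb, were higher after TBI (median log2 fold change 3.09), and their summed level was 300.4 to 361 CPM in sham and 1912 to 3051 CPM in TBI libraries, a mean 7.16-fold higher. Of the other lists, all 10 homeostatic microglial markers (476.7 to 538.4 CPM summed in sham, 1212 to 1508 in TBI), 8 of 10 monocyte and infiltrating macrophage markers (39.1 to 42.1 and 87.0 to 122 CPM) and all 6 neutrophil markers tested of 10 (0.649 to 1.49 and 17.5 to 67.0 CPM) were higher. In each sham library 4 to 6 of the 10 neutrophil markers were at 0. Such a gene entered the test mainly through its TBI counts, so a rise in all 6 tested was close to given. The neutrophil genes Ly6g, Camp and Cxcr2 were at 0 in every sham library, and Ly6g had only 0, 2 and 6 counts in the TBI libraries. Of the T cell markers 1 of 4 tested, Cd3g, was higher (9.04 to 22.7 CPM summed in sham, 5.10 to 31.2 in TBI), and Cd8a was at 0 in every sham library. These genes were named after their values were seen. Astrocyte (6 of 8), oligodendrocyte (4 of 6) and endothelial markers (5 of 6) were higher in part, and 4 of 8 neuronal markers were lower. TBI replicate 3 was the highest library for 7 of the 10 genes, and it also had the highest pan-myeloid sum (3051 CPM against 1912 and 2208) and the highest neutrophil sum (67.0 CPM against 17.5 and 28.5). Without it the same 8 genes passed the threshold. In bulk tissue, more cells of a type and more RNA per cell cannot be told apart, and the part of cell composition in the 10 rises was not tested.

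Set against marker sums of the same library, the direction of most of the 10 genes depended on the list of markers, whereas Casp4 was higher and Nlrc4 lower against each of the 3 lists used. Per 1000 CPM of the pan-myeloid markers, Nlrc4 went from 2.95 ± 0.612 CPM in sham to 0.514 ± 0.224 CPM in TBI mice (SD, n = 3 each), Aim2 from 6.58 ± 1.51 to 2.77 ± 0.647 and Casp1 from 5.84 ± 0.821 to 2.53 ± 0.167. Every TBI library was below every sham library in these 3 genes and also in Pycard (6.80 ± 0.784 to 4.43 ± 0.489), Gsdmd (5.61 ± 0.537 to 4.03 ± 0.150) and Casp8 (5.53 ± 0.922 to 4.40 ± 0.238). Casp4 alone was higher without overlap, at 0.261, 0.240 and 0.981 CPM per 1000 CPM in sham and 1.37, 1.59 and 1.09 CPM per 1000 CPM in TBI mice, where sham replicate 3 came close to the TBI libraries. The groups overlapped in Nlrp3, Nlrp1a and Mlkl. The homeostatic microglial and the monocyte and macrophage sums rose less than the pan-myeloid sum, by 2.71-fold and 2.44-fold. A sum follows its most abundant genes. The median log2 fold change was 1.24 over the homeostatic markers and 3.36 over the monocyte and macrophage markers, against 3.09 over the pan-myeloid markers. A ratio to the monocyte and macrophage sum therefore need not hold for a typical marker of that list. Against the homeostatic or the monocyte and macrophage sum, 6 genes, namely Nlrp3, Pycard, Casp4, Gsdmd, Casp8 and Mlkl, were higher after TBI without overlap, Nlrc4 was lower and Nlrp1a, Aim2 and Casp1 overlapped. Pycard, for example, had 4.56 ± 0.767 CPM in sham and 7.71 ± 0.748 CPM in TBI mice per 1000 CPM of the homeostatic markers (SD, n = 3 each). Both lists were added as divisors after seeing the data. For each list and each of the 7 genes without overlap the two-sided exact permutation p was 0.1, the smallest possible. Levels of such markers also depend on the state of a cell, so the ratio describes how far the genes kept pace with the markers and is not a level per cell.

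**Figure D2:**
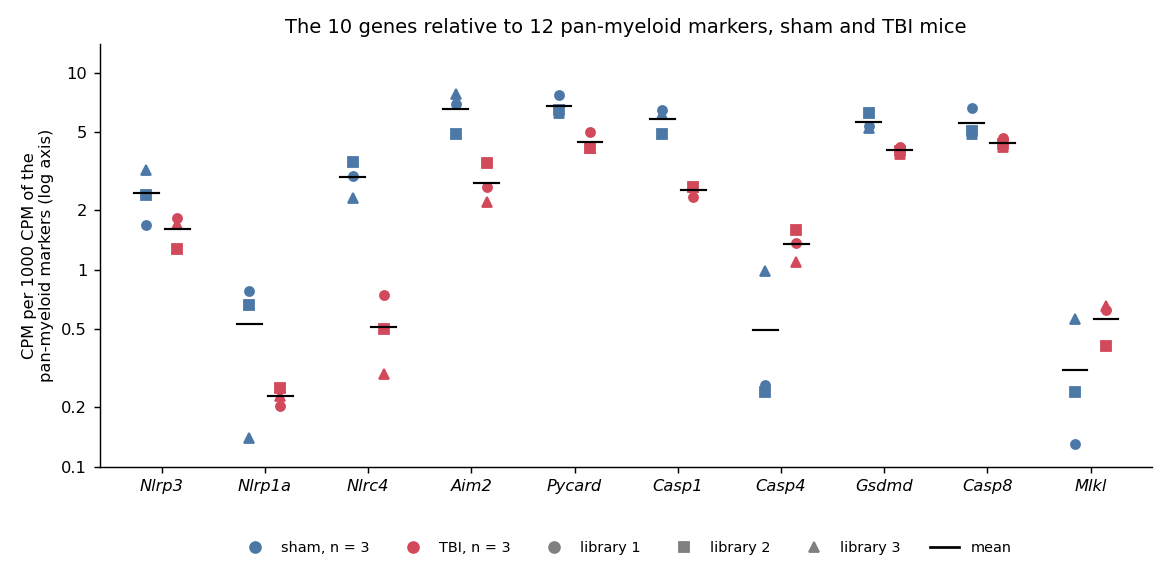
CPM of each gene per 1000 CPM of the 12 pan-myeloid markers in the same library (logarithmic vertical axis), for sham and TBI libraries. Symbols are libraries and lines are group means. Against these markers 6 genes lie lower after TBI without overlap, Casp4 lies higher and 3 genes overlap.

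The pathway beyond the 10 genes was followed in a list of 53 others, likewise chosen with earlier results of these data known. Of these, 44 had enough counts to be tested. After TBI 28 of these were higher and 2 lower with an adjusted p under 0.05, against 16.8% and 11.2% of all genes. The median log2 fold change of the tested genes was 1.11. Nlrp1b, Mefv, Ifi204, Il1rn and Zbp1, all counted as higher, had few or no counts in sham libraries. They entered the test mainly through their TBI counts, so their direction was close to given. The 2 that were lower, Dpp8 (-0.28) and Xiap (-0.25), were named after their values were seen. Among other sensors 7 of 10 rose. Of the NAIP genes, with whose products NLRC4 works, Naip2, Naip5 and Naip6 rose 10.1-fold, 9.64-fold and 5.89-fold (adjusted p = 4.22e-05, 0.000489 and 0.00441 in that order). Naip1, named after its values were seen, did not pass. It had 10, 10 and 9 counts in sham and 12, 14 and 9 in TBI libraries (log2 fold change 0.24, adjusted p = 0.739 from edgeR). Nlrc4 itself did not rise either, and these differences between genes were not tested. Nlrp1b, the neighbour and close relative of Nlrp1a, rose 10.2-fold (adjusted p = 0.00145), and Mefv, which encodes the sensor pyrin, had 0 counts in each sham library and 33, 42 and 100 after TBI. Reads of the related NAIP and NLRP1 genes can be hard to assign, so the split of counts within these families is uncertain. Of 9 regulators of the sensors 5 rose and 1 fell, including P2rx7, the ATP-gated channel upstream of NLRP3, with a log2 fold change of 1.35 (adjusted p = 6.37e-05), and Nek7, which binds NLRP3, with 0.36 (adjusted p = 0.0109, and 0.0589 without sham replicate 3), whereas the channel gene Panx1 stood at -0.05 (adjusted p = 0.732). The DNA-sensor relative Ifi204 had the largest rise of this group, from 9, 14 and 6 counts to 582, 850 and 1224.

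Downstream of Casp1 and Gsdmd, 5 of 6 cytokine and inhibitor genes rose. Il1b had 15, 4 and 16 counts in the sham libraries and 106, 208 and 406 in the TBI libraries (log2 fold change 4.37, SE 0.643, adjusted p = 0.00137), whereas Il18 had 572, 589 and 696 in the sham libraries and 766, 792 and 728 in the TBI libraries (0.28, SE 0.107, adjusted p = 0.0818, and 0.0299 to 0.0482 in 4 other settings). Il18 was thus already well read in sham brains, while Il1b was near the floor there, and without TBI replicate 3 the log2 fold change of Il1b was 3.66. The inhibitors were raised too, with Il1rn, the receptor antagonist, at 0, 0 and 4 counts in sham and 200, 147 and 451 in TBI mice (log2 fold change 7.54, adjusted p = 0.000329, a size that rests on the counts of 1 sham library) and Il18bp at a log2 fold change of 1.39 (adjusted p = 0.00365). Ninj1, which ruptures the membrane after the gasdermin pore has formed, had a log2 fold change of 1.33 (adjusted p = 9.31e-05), and Gsdme, another gasdermin gene, had 0.02 (adjusted p = 0.885).

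Beside Casp8 and Mlkl, all 4 necroptosis partners rose, though Zbp1, like Mlkl, entered the test mainly through its TBI counts. Ripk3 was also low in the sham libraries, at 12, 19 and 9 counts. Zbp1, a sensor of Z-form nucleic acid, went from 1, 2 and 4 counts to 223, 385 and 485, and the kinase genes Ripk1 and Ripk3 rose by 1.56 (adjusted p = 6.85e-05) and 2.09 (adjusted p = 0.00734) on the log2 scale. Of 7 partners of caspase-8, 3 rose and 1 fell, with Fadd, the adaptor that recruits caspase-8, at 1.45 (adjusted p = 0.00208) and Cflar, which restrains it, at 0.86 (adjusted p = 0.000399). Of 5 other caspase genes tested 2 rose and 3 did not pass, and Casp6, 1 of those that rose, had a log2 fold change of 1.18 (adjusted p = 0.00227). The part of the marker rises given above in these counts was not tested.

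**Figure D3:**
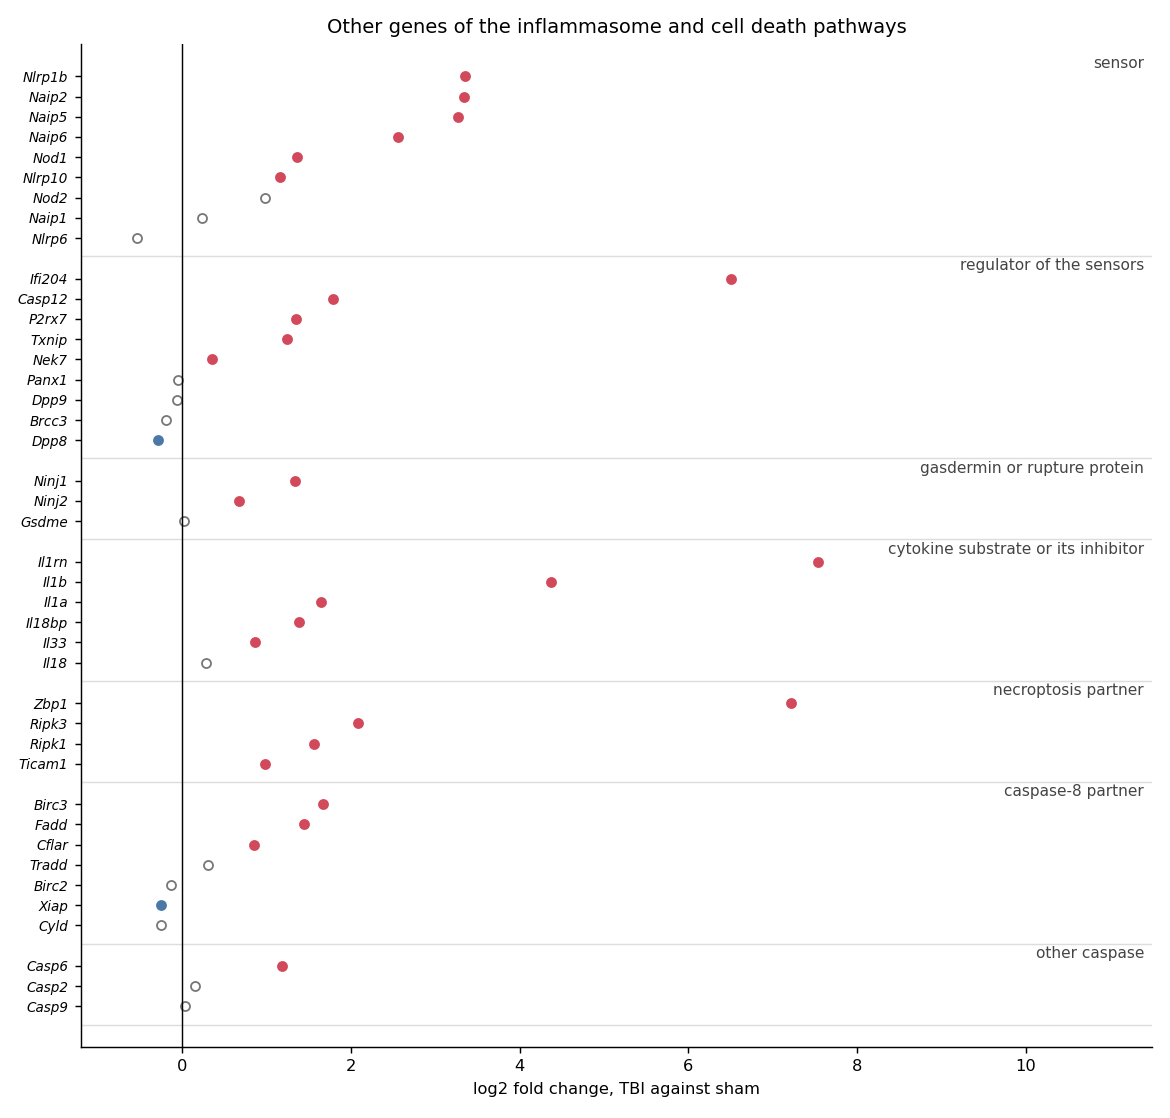
Log2 fold changes, TBI against sham (horizontal axis), of tested genes of the wider list by role. Filled points passed an adjusted p of 0.05, red for higher and blue for lower, and open points did not. Mefv is not drawn because its sham counts were 0. Ifi204, Il1rn and Zbp1 lie farthest to the right.

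In the second comparison, of zileuton with injured controls, none of the 10 genes passed an adjusted p of 0.05 in edgeR, nor did any of the 17363 genes tested (0%), where the smallest adjusted p was 0.1855. At an unadjusted p under 0.05 there were likewise 0 of the 10, against 1186 genes or 6.83% of all. DESeq2 called 27 genes, and limma called 4 or 5 with a filter on low TPM, depending on the pseudocount, and 0 without that filter. None of these was among the 10. In all 10 genes the libraries of the groups overlapped, whereas 6.51% of all genes were higher and 7.04% lower without overlap. The log2 fold changes were below 0 in 8 of the 10, against 49.3% of all genes, and their median was -0.28, against 0.00254.

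**Figure D4:**
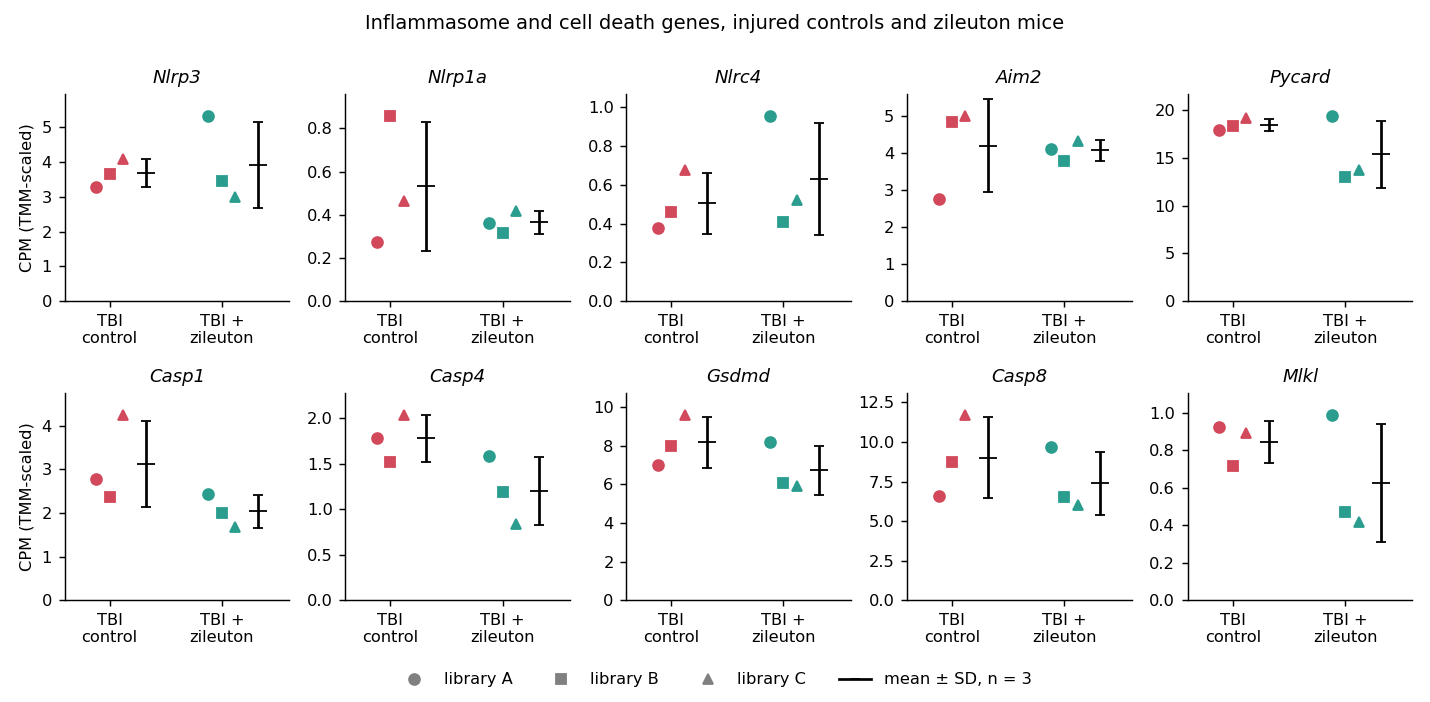
CPM after TMM scaling (vertical axis, starting at 0) of each of the 10 genes in injured control and zileuton libraries A, B and C of 2022, with the mean ± SD. The groups overlap in every gene, and zileuton library A is the highest of its group in 8.

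The inflammatory caspases came nearest to a difference. Casp1 had 2.78, 2.37 and 4.24 CPM in controls A, B and C and 2.43, 2.01 and 1.67 CPM in the zileuton libraries, so only zileuton library A lay above any control. Its log2 fold change was -0.61 (95% interval -1.25 to 0.02, unadjusted p = 0.0567, adjusted p = 0.713). Casp4 had 1.78, 1.51 and 2.03 CPM in controls and 1.58, 1.19 and 0.837 CPM with zileuton, again with zileuton library A alone within the control range, and a log2 fold change of -0.56 (95% interval -1.24 to 0.12, adjusted p = 0.715). The intervals of both reach past a fall of 2-fold and include no change. The Casp4 to Casp1 ratio, from TPM, was 0.880, 0.977 and 1.28 in controls and 0.701, 1.00 and 0.694 with zileuton, and overlapped (two-sided exact permutation p = 0.3).

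Pycard had 17.9, 18.4 and 19.1 CPM in controls and 19.4, 12.98 and 13.8 CPM with zileuton, where library A was the highest of all 6 and the other 2 the lowest (log2 fold change -0.26, 95% interval -0.62 to 0.09). Gsdmd had 6.99, 7.98 and 9.59 CPM in controls and 8.19, 6.06 and 5.92 CPM with zileuton (-0.28, 95% interval -0.70 to 0.14). Casp8 had 6.62, 8.72 and 11.7 CPM in controls and 9.67, 6.54 and 5.99 CPM with zileuton (-0.28, 95% interval -0.86 to 0.29). In all 3 genes zileuton libraries B and C fell below every control while library A did not. Mlkl repeated this order at 27, 25 and 25 counts in controls and 30, 15 and 12 with zileuton, and its log2 fold change was -0.42 (95% interval -1.34 to 0.49).

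The sensors had values on both sides of 0. Nlrp3 had 3.29, 3.66 and 4.10 CPM in controls and 5.33, 3.46 and 3.00 CPM with zileuton, a log2 fold change of 0.09 (95% interval -0.46 to 0.65). Aim2 had 2.74, 4.83 and 4.99 CPM in controls and 4.11, 3.77 and 4.32 CPM with zileuton, all 3 within the control range, with a log2 fold change of -0.04 (95% interval -0.60 to 0.51) whose sign changed with the setting. Both intervals exclude a 2-fold change in either direction. Nlrc4 and Nlrp1a had too few counts to bound a change closely. Nlrc4 had 11, 16 and 18.7 estimated counts in controls and 29, 13 and 15 with zileuton (0.32, 95% interval -0.68 to 1.32), and Nlrp1a had 8, 30 and 13 in controls and 11, 10 and 12 with zileuton (-0.56, 95% interval -1.66 to 0.53).

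Of the zileuton libraries, A was the highest for 8 of the 10 genes, and its pan-myeloid sum was 2685 CPM against 1931 and 1658 CPM in B and C. Among controls the pan-myeloid sum was 1738 CPM in A, which was the lowest control for 7 of the 10 genes, and 2915 CPM in C, which was the highest for 8. The neutrophil sum was 8.58 CPM in zileuton library A and 2.20 and 1.71 CPM in B and C, against 4.71 to 7.23 CPM in controls. Genes with an unadjusted p under 0.05 in edgeR, 1186 with all libraries, numbered 1909 without zileuton library A, 689 without B and 777 without C. Of the 10 genes, 0 had such a p without zileuton library B or C. Without control A, B or C the numbers were 0, 1 and 0. Since zileuton library A was the highest of its group for 8 of the 10, leaving it out lowers their log2 fold changes by construction. Without zileuton library A all 10 log2 fold changes were below 0 with a median of -0.49, and 5 genes had an unadjusted p under 0.05, all lower, against 10.8% of all genes in that fit and 5.94% lower, though none of the 10 passed adjustment. These 5 were Pycard (-0.46), Gsdmd (-0.45), Casp4 (-0.80), Casp1 (-0.76) and Mlkl (-0.91), with edgeR's adjusted p between 0.313 (Pycard) and 0.458 (Mlkl). In the same fit the pan-myeloid markers were below 0 in 12 of 12 with a median of -0.47, and the neutrophil markers in 4 of 4 tested. Zileuton library A also had the highest pan-myeloid and neutrophil sums of its group, so leaving it out lowers these sums by construction too. With all libraries, 10 of 12 pan-myeloid markers were below 0 with a median of -0.26, and 0 of 12 passed adjustment. Ly6g and Elane, which belong to the neutrophil list and were named after their values were seen, were at 0 in all 6 libraries. Per 1000 CPM of the pan-myeloid markers the groups overlapped in all 10 genes. Whether myeloid content accounts for the values of library A was not tested.

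**Figure D5:**
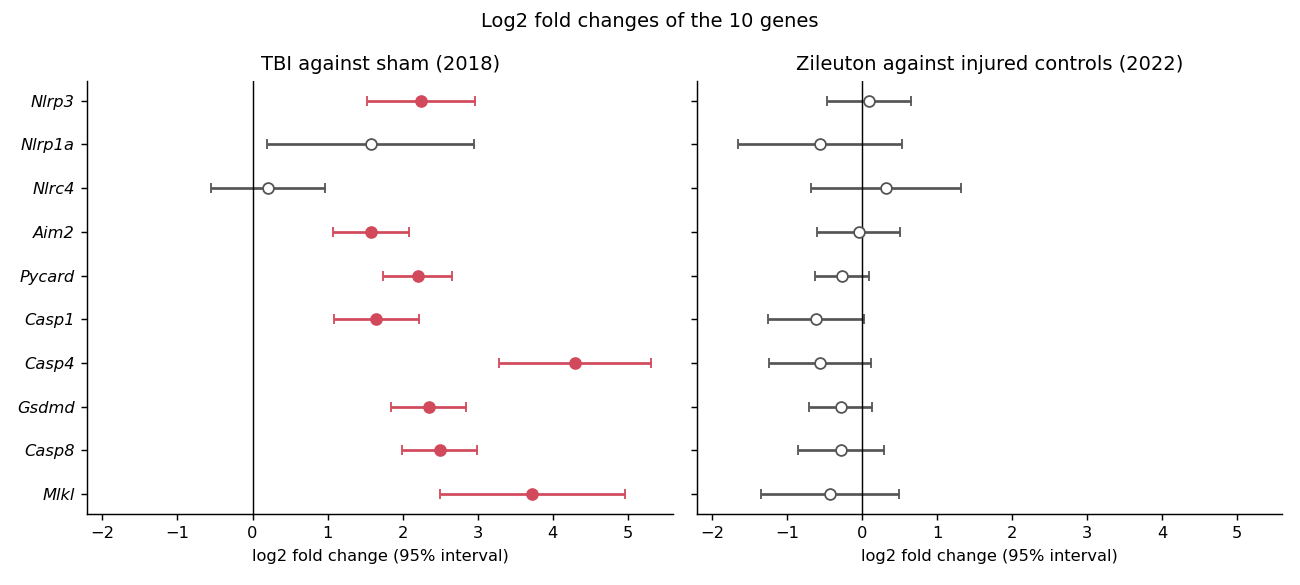
Log2 fold changes with 95% intervals (horizontal axis) of the 10 genes in both comparisons. Filled red points passed an adjusted p of 0.05. After TBI 8 intervals of genes that passed lie wholly above 0, and with zileuton every interval includes 0.

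By TPM, the injured controls of 2022 had Pycard (26.0 ± 1.88 TPM, SD, n = 3, as for the following means) above Gsdmd (12.5 ± 1.41), without overlap. Casp8 (7.96 ± 2.85), Aim2 (6.78 ± 2.41), Casp4 (4.28 ± 2.01) and Casp1 (3.97 ± 1.05) followed, each overlapping the next, then Nlrp3 (1.70 ± 0.127) and Mlkl (0.817 ± 0.111), each apart, and last Nlrp1a (0.25 ± 0.144) and Nlrc4 (0.187 ± 0.0473), which overlapped. In zileuton mice Pycard stood at 21.6 ± 9.42 TPM and Gsdmd at 11.1 ± 2.17 TPM, and the order differed only between Casp1 and Casp4 and between Nlrc4 and Nlrp1a, pairs whose TPM overlapped. Both tables of injured mice thus had Gsdmd, Casp8, Pycard and Aim2 among their leading genes and Nlrc4 and Nlrp1a at the bottom, but the tables were made in separate batches with different units and levels were not tested between them.

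In the wider list none of 43 tested genes passed adjustment with zileuton in edgeR, and at an unadjusted p under 0.05 there were 1 higher and 2 lower, near the 2.93% and 3.9% of all genes. These were Dpp8, a protease that restrains NLRP1 (0.26, unadjusted p = 0.0384), Ifi204 (-0.86, unadjusted p = 0.0143) and Il18 (-0.33, unadjusted p = 0.0476), all from edgeR with adjusted p = 0.713. Dpp8 was named after its values were seen, to complete this count. Il1b had 49, 58 and 31 counts in controls and 66, 37 and 14 with zileuton, a log2 fold change of -0.22 (SE 0.48, adjusted p = 0.925). Alox5, which encodes the target of the drug, had a log2 fold change of 0.43 (adjusted p = 0.756). The median of the list was -0.065.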

How the data were processed

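RNA-seq values of 10 named genes were taken from tables of brain tissue of 12 mice. For 2018 the authors deposited raw counts per gene as whole numbers, with FPKM. For 2022 the authors deposited estimated counts, 13.7% of which were not whole, with TPM. The submitters' processing notes name HISAT2, featureCounts, Subread, DESeq2 and GRCm39 without roles, and whether counting used the strand is not given in the sources used here. The design assumed counts for both tables, so the estimated counts were rounded. No columns were pooled or left unused.

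In R 4.3.3, edgeR 4.0.16 (TMM, filterByExpr, glmQLFit, glmQLFTest) tested 19536 and 17363 genes, each batch alone and with 3 mice per group, with Benjamini-Hochberg adjustment over all of them and a threshold of 0.05. Biological coefficients of variation were 0.174 and 0.149. CPM scale counts to 1000000 per library. Alternatives used limma 3.58.1 and DESeq2 1.42.0, other scaling, filters and pseudocounts, a replicate block, a removed length trend, the equal-variance test the study names, with adjustment added, and each mouse left out. A robust fit and 2 other marker sums as divisors were added after seeing the data. Scripts were tested on simulated data.

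Symbols were found for 34808 and 52081 identifiers. The 10 genes, the wider list and the marker lists were chosen with earlier results of these data known, and no list was tested as a set. Some genes of the wider list are counted but not reported here. Every one of the 10 is named, with preset genes of the wider list and up to 3 abundant genes per marker list. Any other gene is said to have been chosen after its values were seen. Promoter windows came from RefSeq on GRCm38.p6, and overlaps from GENCODE M21 on GRCm38. Gene coordinates are not given, because the builds differ. Figures were drawn with matplotlib 3.10.9 in Python 3.11.15.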

Additional observations from a re-analysis of the deposited data

How the results depend on the processing

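After TBI, 8 of the 10 genes passed the threshold in 15 of 19 other settings, 14 of which could test all 10. With at least 10 counts in every library, and with limma on log2(FPKM + 1) or log2(FPKM + 0.1) for genes with a mean of at least 0.5 FPKM, 6 passed, because Casp4 and Mlkl were filtered out. The equal-variance test the study names, applied here to FPKM, gave an unadjusted p under 0.05 for all 6 genes it could enter. With an adjustment that the study does not state it called 4, leaving out Nlrp3 (adjusted p = 0.0567) and Casp1 (0.0658), together with 15 genes of the wider list (30 in the main fit) and 2625 of all genes (5479). Of all calls, 3286 of 5479 were higher, and 2899 of 4098 with limma on log2(FPKM + 0.1). Differences near 0 changed sign, namely Nlrc4 (-0.0184 to 0.396 over fits that each left out 1 mouse), Gsdme (-0.056 to 0.0815 over the same fits and -0.000304 with DESeq2) and Panx1 (0.000213 with library totals and 0.000153 with the equal-variance test). Of the named genes of the wider list, Il18 passed with library totals and in the 3 limma fits, and Nek7 did not pass without sham replicate 3. Naip6, Mefv and Il1rn did not pass with limma on all genes, nor Il1b, Il1rn, Il18bp, Zbp1 and Ifi204 with the equal-variance test. With all counts of 2018 divided by 2, as when both reads of a pair are counted, the same number of 8 passed.

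With zileuton, 0 of the 10 passed adjustment in all 18 other settings. Of all genes, DESeq2 called 27, limma 4 with a pseudocount of 1 and 5 with 0.1 after a filter on low TPM and 0 without it, and edgeR without a filter 4. At an unadjusted p under 0.05, 1 of the 10 passed without a filter (Casp1) and 1 with limma on log2(TPM + 1) (Casp4), and 0 to 5 did over fits that each left out 1 mouse, the 5 without zileuton library A. Genes with such a p numbered 1781 with limma on all genes and 689 to 1909 with 1 mouse left out, against 1186. They were higher in 509 of 1186 with edgeR and in 63.7% to 71.7% on TPM, a tilt whose cause was not tested. Aim2 changed sign with limma (0.0727 filtered, 0.0727 unfiltered and 0.0917 with the smaller pseudocount), with the equal-variance test (0.0267), with the length trend removed (0.0488) and over left-out mice (-0.272 to 0.0962). Over left-out mice Nlrp3 ranged from -0.189 to 0.258, Nlrc4 from -0.111 to 0.58 and Il1b from -0.834 to 0.171.

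Replicate numbers did not pair the mice. Deviations of libraries with the same number correlated at -0.023, -0.094 and -0.033 in 2018 and at -0.28, 0.063 and -0.282 in 2022. With the number as a block, 8 of the 10 genes passed after TBI and 0 with zileuton, where 729 of all genes had an unadjusted p under 0.05. Nlrp1a, Nlrc4, Casp4 and Mlkl had under 20 counts in some library, which limits what these libraries can show of them.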
